A study of Mus musculus with 6 samples.

Results

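The urea cycle enzymes were examined as 7 genes taken by name, *Cps1*, *Otc*, *Ass1*, *Asl*, *Arg1*, *Arg2* and *Nags*, and all 7 were among the 31950 genes measured. RNA of whole livers from 3 wild-type (WT) and 3 β-cateninΔ(ex3)/+ C57BL/6 mice was sequenced, 1 library for each liver, numbered here by the replicate number of its label, and the labels give an age of 8 weeks for both groups. β-cateninΔ(ex3)/+ livers carry 1 β-catenin (*Ctnnb1*) allele without exon 3, the exon whose loss keeps β-catenin from being degraded. The study uses this genotype name for livers in which tamoxifen-induced *ERT2-Alb-Cre*, which acts in hepatocytes, deleted the exon in adult mice. Its RNA-seq methods give the genotypes only and repeat no Cre route, and they state neither the sex of the mice nor whether WT mice carried Cre or received tamoxifen. Values are FPKM, the fragments of a gene per length of its transcripts and per mapped fragments of the library, so levels can be set against each other between genes.

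The urea cycle turns ammonia, which is toxic, into urea for excretion, and the liver is the organ that runs the complete cycle. In mitochondria NAGS makes N-acetylglutamate, which CPS1 needs to form carbamoyl phosphate from ammonia, and OTC joins carbamoyl phosphate to ornithine to give citrulline. In the cytosol ASS1 and ASL turn citrulline and aspartate into arginine and fumarate, and ARG1 splits arginine into urea and ornithine. Periportal hepatocytes carry most of the cycle, while the hepatocytes around the central vein, where Wnt and β-catenin signalling is active, instead fix ammonia into glutamine.

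The WT libraries held transcripts typical of a young liver although their labels give the same age as those of β-cateninΔ(ex3)/+ livers. *Afp* was at 608 ± 5.94 FPKM in WT and 2.55 ± 0.226 FPKM in β-cateninΔ(ex3)/+ livers (SD, n = 3 each), *H19* at 2353 ± 28.6 and 0.0260 ± 0.0196 FPKM, and *Igf2* at 829 ± 22.9 FPKM in WT, while each β-cateninΔ(ex3)/+ liver lists it at 0. *Xist* was at 21.2 ± 0.957 FPKM in WT and 0.00913 ± 0.00796 FPKM in β-cateninΔ(ex3)/+ livers, and the Y-linked gene *Eif2s3y* at 0.00563 ± 0.00975 and 9.51 ± 0.388 FPKM. Genotype, sex and the stage that these genes mark cannot be told apart in any comparison of these 6 livers. All 7 hepatocyte markers in the table were present in every library, with a summed level of 77007 to 80496 FPKM in WT and 38848 to 39205 FPKM in β-cateninΔ(ex3)/+ livers. Markers are said here to rise or fall at a limma adjusted p under 0.05 at any fold. Of all genes tested, 37.4% rose and 19.6% fell by this measure. Of these 7 hepatocyte markers, *Alb*, *Apoa1*, *Ttr* and *Trf* fell (log2 fold changes of -0.74, -2.01, -1.42 and -0.94). *Apoc3* and *Hnf4a* rose (2.18 and 1.10), while *Asgr1* did not pass (-0.068). Of the marker lists of other cells, all 7 tested neutrophil markers fell. Their summed level was 340.4 to 366 FPKM in WT and 30.0 to 30.9 FPKM in β-cateninΔ(ex3)/+ livers, with *Ly6g* listed at 0 in each of the latter. In contrast, 7 of 8 Kupffer cell and macrophage markers rose, and *Marco* fell (log2 fold change -1.36). Of the others, 7 of 8 tested erythroid markers fell (3308 to 3651 against 1809.8 to 1873 FPKM in sum), as did 7 of 7 stellate cell (86.7 to 89.5 against 25.7 to 28.7), 7 of 7 endothelial (72.4 to 73.8 against 51.2 to 52.0), 2 of 4 cholangiocyte (39.6 to 43.1 against 18.5 to 19.3) and 3 of 5 T and B cell markers (25.5 to 26.9 against 7.90 to 8.66), with *Trac* of the last list higher. The part of these cells in the results on the urea cycle was not tested. In whole liver, fewer cells of a type and less RNA per cell cannot be told apart.

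*Ass1* needs a word on sequence before its values, because the mouse genome holds a processed pseudogene, *Gm5424*, that is nearly a copy of it. *Ass1* lies on chr2:31470207-31520672 and *Gm5424* on chr10:62071123-62072362 (GENCODE M21, mouse build GRCm38). Along the 1240 bases of *Gm5424*, 6 differed from the *Ass1* transcript, an identity of 99.5%, and the longest run with no difference was 398 bases. The stretch below spans the junction of exons 6 and 7 of 16 in the coding sequence of *Ass1*. It is shown because it holds 1 of the 6 differences, in capitals, and no other base in it tells the gene from the copy.
Ass1: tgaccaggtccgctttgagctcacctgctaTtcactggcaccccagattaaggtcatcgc
Gm5424: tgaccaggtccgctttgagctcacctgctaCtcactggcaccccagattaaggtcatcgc
Of all windows of 75 bases in the coding transcript of *Ass1*, 46.9% also occurred in *Gm5424*, so the split of fragments between the 2 is uncertain. No window of *Cps1*, *Otc*, *Asl* or *Arg1* occurred in another gene of the annotation.

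In β-cateninΔ(ex3)/+ livers 5 of the 6 urea cycle enzymes with enough signal to test rose and *Otc* fell (limma adjusted p under 0.05 at any fold, which 57% of all genes tested passed, 37.4% higher and 19.6% lower). *Ass1* rose the most, *Nags* and *Asl* followed, *Cps1* roughly doubled and *Arg1* rose the least. *Arg2* was near 0 in both groups. For each of the 6 tested genes the 3 β-cateninΔ(ex3)/+ livers lay wholly on one side of the 3 WT livers, as they did for 66% of all genes tested.

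*Nags* (chr11:102145513-102149477), the source of the activator that CPS1 cannot work without, had 12.8, 11.2 and 13.3 FPKM in WT livers 1 to 3 and 39.6, 40.8 and 40.7 FPKM in β-cateninΔ(ex3)/+ livers 1 to 3. It was the lowest of the tested enzymes in every liver, and its levels in the 2 groups were far apart. The log2 fold change (with its standard error, SE) of *Nags*, on the log2(FPKM + 1) scale used throughout, was 1.63 (SE 0.066, limma adjusted p = 6.86e-06), and the means differed 3.25-fold. An antisense gene, *Gm11586*, overlaps *Nags* and shared 12.5% of its 75-base windows. *Gm11586* had a mean of 0.899 FPKM in WT and 1.56 FPKM in β-cateninΔ(ex3)/+ livers, both small beside *Nags*.

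*Cps1* (chr1:67123026-67231259), the entry step and the control point of the cycle, had 86.9, 91.9 and 88.2 FPKM in WT livers 1 to 3. Its β-cateninΔ(ex3)/+ values were 176, 180 and 175 FPKM. The 2 sets were tight and well separated, with a spread of 2.60 and 2.48 FPKM (SD, n = 3) in WT and β-cateninΔ(ex3)/+ livers. The log2 fold change of *Cps1* was 0.98 (SE 0.034, 95% CI 0.90 to 1.07, limma adjusted p = 3.37e-06). Its 1.99-fold change lay just under the 2-fold threshold that the study used beside a false discovery rate of 0.05, and without WT liver 2 the log2 fold change was 1.01 and past it.

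*Otc* (chrX:10252305-10321024), the X-linked enzyme that makes citrulline, went the other way. *Otc* had 63.7, 68.2 and 61.5 FPKM in WT livers 1 to 3 and 44.0, 43.5 and 44.7 FPKM in β-cateninΔ(ex3)/+ livers 1 to 3. Every β-cateninΔ(ex3)/+ liver was below every WT liver. Its log2 fold change was -0.54 (SE 0.047, limma adjusted p = 0.000184), so that the β-cateninΔ(ex3)/+ mean was 0.684 of the WT mean, short of a 2-fold decrease. The sex-linked transcripts above moved with this difference, and their part in it was not tested.

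*Ass1*, which condenses citrulline with aspartate, had the largest change. It had 173, 168 and 179 FPKM in WT livers 1 to 3 and 803, 804 and 747 FPKM in β-cateninΔ(ex3)/+ livers 1 to 3. The lowest β-cateninΔ(ex3)/+ liver was several times above the highest WT liver. The log2 fold change of *Ass1* was 2.17 (SE 0.041, limma adjusted p = 2.96e-07), a 4.53-fold difference of means. *Gm5424* had 92.9, 123 and 88.9 FPKM in WT livers 1 to 3 and 387, 376 and 518 FPKM in β-cateninΔ(ex3)/+ livers 1 to 3, with a log2 fold change of 2.06 (SE 0.17, limma adjusted p = 0.000151). WT liver 2 and β-cateninΔ(ex3)/+ liver 3 were each the lowest of their group for the gene and the highest for the copy. Adding the 2 gave 266, 291 and 268 FPKM in WT and 1190.5, 1179.8 and 1265 FPKM in β-cateninΔ(ex3)/+ livers 1 to 3. *Ass1* plus *Gm5424* had a log2 fold change of 2.14 (SE 0.048, limma adjusted p = 5.96e-07). The copy took 33.2% to 42.2% of the sum in WT and 31.9% to 41.0% in β-cateninΔ(ex3)/+ livers.

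*Asl* (chr5:130011258-130025019), which releases arginine and fumarate, had 30.2, 30.1 and 29.8 FPKM in WT livers 1 to 3. In β-cateninΔ(ex3)/+ livers 1 to 3 it had 70.0, 66.2 and 64.1 FPKM. WT livers differed by only 0.213 FPKM (SD, n = 3), and all β-cateninΔ(ex3)/+ livers were above them. The log2 fold change of *Asl* was 1.13 (SE 0.043, limma adjusted p = 5.14e-06), a 2.22-fold difference of means. It fell under 2-fold after median-ratio scaling (0.96) and quantile normalization (0.85).

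*Arg1* (chr10:24915221-24927484), the arginase of the hepatocyte cytosol, had 141, 140.004 and 146 FPKM in WT livers 1 to 3 and 214, 206 and 211 FPKM in β-cateninΔ(ex3)/+ livers 1 to 3. The groups did not overlap, although the step between them was the smallest of the 5 increases. The log2 fold change of *Arg1* was 0.56 (SE 0.032, limma adjusted p = 2.77e-05), 1.48-fold. Macrophages can also make arginase, and the summed level of the 8 Kupffer cell and macrophage markers was 220.2 to 228 FPKM in WT and 505 to 514 FPKM in β-cateninΔ(ex3)/+ livers. Of these 8, 7 rose and *Marco* fell (means of 50.1 FPKM in WT and 18.9 FPKM in β-cateninΔ(ex3)/+ livers). The part of macrophages in the change of *Arg1* was not tested.

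*Arg2* (chr12:79130777-79156301), the mitochondrial arginase of kidney and other tissues, had 0.116 and 0.0569 FPKM in WT livers 1 and 2 and was listed at 0 in WT liver 3. It was listed at 0 in β-cateninΔ(ex3)/+ liver 1 and had 0.0784 and 0.248 FPKM in livers 2 and 3. The groups overlapped, and an estimated 6.9 fragments at most stood behind a value. *Arg2* did not reach the mean of 0.5 FPKM needed for the limma test, and the exact permutation test gave p = 0.7 (two-sided, 3 livers against 3). A difference was not detectable at this depth. *Gm48780* and *Vti1b*, on the opposite strand, shared 17.9% of the 75-base windows of *Arg2*, so even these few fragments are uncertain.

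**Figure D1:**
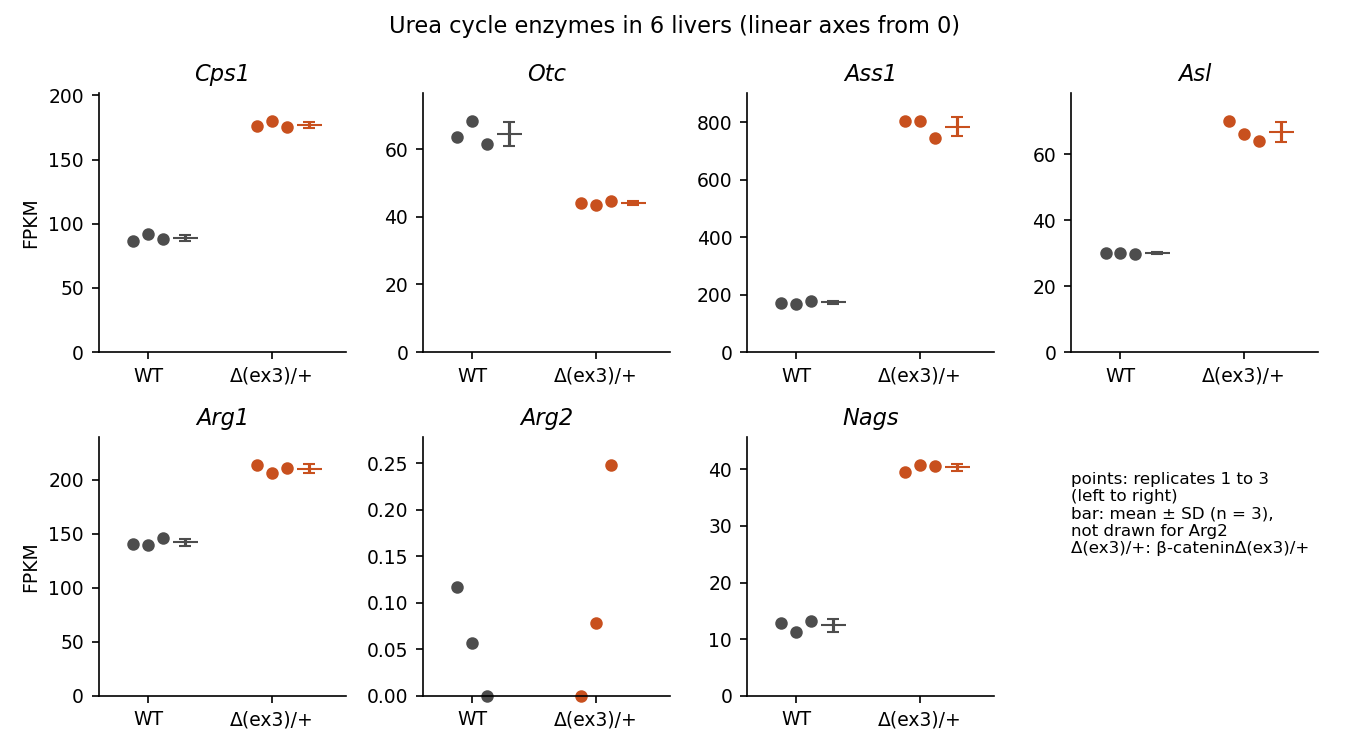
FPKM (linear axes from 0) of the 7 urea cycle enzymes in each of 3 WT (grey) and 3 β-cateninΔ(ex3)/+ (orange) livers, with the mean and SD beside the points except for *Arg2*. The groups are apart for 6 genes, with *Otc* the one that is lower in β-cateninΔ(ex3)/+ livers, and they overlap for *Arg2*, whose axis ends below 0.3 FPKM.

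By the study's thresholds, an adjusted p under 0.05 and at least 2-fold, 3 of the 6 tested enzymes, *Ass1*, *Asl* and *Nags*, were higher in β-cateninΔ(ex3)/+ livers and 0 were lower. Over all 13243 genes tested, 12.7% passed these thresholds, 8.17% higher and 4.52% lower. The median log2 fold change of the 6 was 1.06, against 0.14 over all genes tested. The exact permutation test gave p = 0.1 for each of the 6 (two-sided, and with 3 livers a group it cannot go lower). The labels do not say more of how the livers of a group were obtained, and the p-values measure only the spread between these samples.

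**Figure D2:**
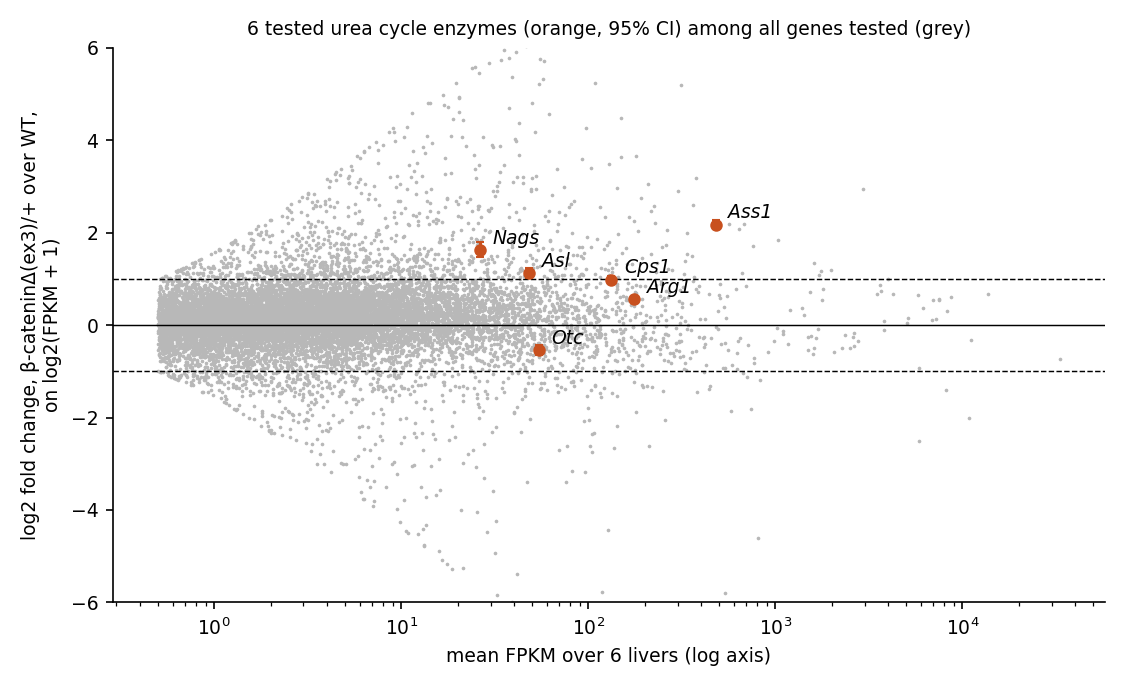
Log2 fold change of β-cateninΔ(ex3)/+ over WT livers (on log2(FPKM + 1)) against mean FPKM over the 6 livers (log axis), for 13243 genes (grey) and the 6 tested urea cycle enzymes (orange, with 95% CI); dashed lines mark 2-fold, and 33 genes beyond ±6 are outside the axis. *Ass1*, *Nags* and *Asl* lie above the upper line, *Cps1* at it, *Arg1* between the lines and *Otc* below 0.

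The livers of a group differed little in these enzymes. The coefficient of variation between the 3 livers of a group was 0.711% (*Asl*) to 8.61% (*Nags*) in WT and 1.36% (*Otc*) to 4.48% (*Asl*) in β-cateninΔ(ex3)/+ livers for the 6 tested enzymes. Over the 3126 genes with a mean of at least 10 FPKM, the medians were 5.07% and 4.11%. Each of the 6 rested on at least an estimated 747 fragments in every liver, from depths estimated at 24.4 to 24.7 M fragments in WT and 16.9 to 19.5 M in β-cateninΔ(ex3)/+ livers.

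The order of the levels changed at 1 place. In WT livers it was *Ass1*, *Arg1*, *Cps1*, *Otc*, *Asl*, *Nags* and *Arg2*, and in β-cateninΔ(ex3)/+ livers *Asl* was above *Otc*. No 2 neighbours in either order overlapped between the livers of a group. Among all genes in the table, *Ass1* moved from rank 256 by its WT mean to rank 74 by its β-cateninΔ(ex3)/+ mean, *Nags* from 2394 to 1110.0 and *Cps1* from 463 to 286, while *Otc* went from 619 to 1022.

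Together the 7 enzymes made up 511.5 ± 5.52 FPKM in WT and 1324 ± 35.4 FPKM in β-cateninΔ(ex3)/+ livers (SD, n = 3 each). That was 0.115% and 0.283% of all FPKM of a liver. The make-up of the sum shifted towards *Ass1*, whose share was 33.9 ± 0.770% in WT and 59.3 ± 0.928% in β-cateninΔ(ex3)/+ livers. The share of *Arg1* went from 27.8% to 15.9%, that of *Cps1* from 17.4% to 13.4% and that of *Otc* from 12.6% to 3.33%. For the sum and each of these shares the groups did not overlap (exact permutation test, two-sided p = 0.1, the smallest possible). The sum, the shares, the rank of *Ass1* above and its ratio below leave out *Gm5424*, so they rest on the uncertain split of fragments. The copy took 33.2% to 42.2% of *Ass1* plus *Gm5424* in WT and 31.9% to 41.0% in β-cateninΔ(ex3)/+ livers.

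**Figure D3:**
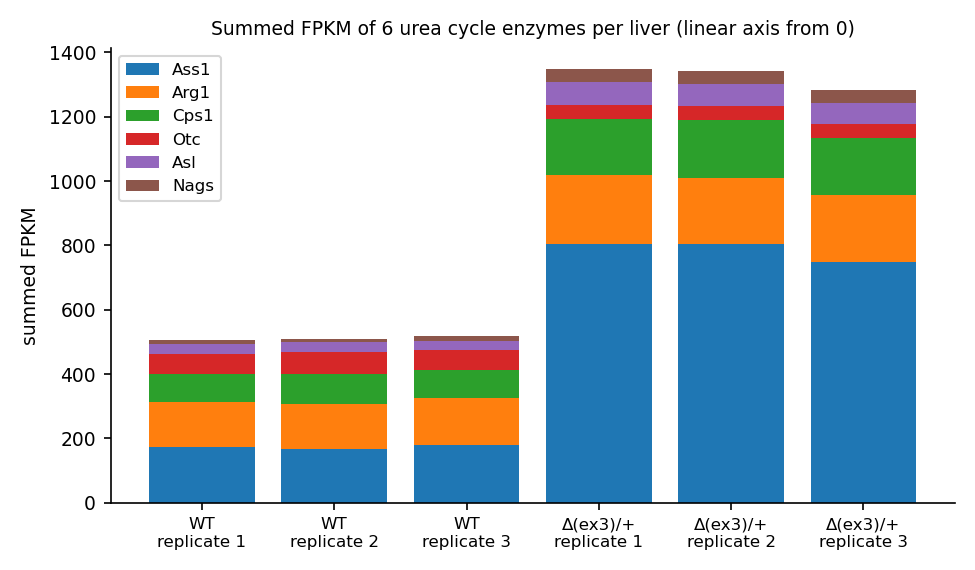
Summed FPKM (linear axis from 0) of 6 urea cycle enzymes in each liver, with each enzyme's part stacked; *Arg2* is too low to draw. The 3 WT bars end between 507 and 518 FPKM and the 3 β-cateninΔ(ex3)/+ bars between 1283 and 1347 FPKM, with *Ass1* as the main part of the latter.

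Ratios between enzymes within a library do not depend on how the library was scaled. *Otc* over *Cps1*, the enzyme that uses carbamoyl phosphate over the one that makes it, was 0.732, 0.742 and 0.698 in WT livers 1 to 3 and 0.250, 0.242 and 0.255 in β-cateninΔ(ex3)/+ livers 1 to 3. This ratio was lower in every β-cateninΔ(ex3)/+ liver, by 1.54 on the log2 scale (log2 difference -1.54, SE 0.035). *Ass1* over *Cps1* was higher, at 1.95 ± 0.103 in WT and 4.43 ± 0.158 in β-cateninΔ(ex3)/+ livers. *Nags* over *Cps1* also was higher, at 0.140 ± 0.0155 and 0.228 ± 0.00345, and *Arg1* over *Cps1* was lower, at 1.60 ± 0.0687 and 1.19 ± 0.0369. *Asl* kept closest to *Cps1*, at 0.338 ± 0.00953 and 0.377 ± 0.0181 (SD, n = 3 for each ratio). All 7 ratios compared, with *Glul* over *Cps1* and *Oat* over *Arg1* below, were apart in the groups, with an exact permutation p of 0.1 before and after adjustment over the 7, the smallest value possible.

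Other scalings left the direction of each tested enzyme in place. Median-ratio scaling shifted the median over all genes of the log2 fold change by -0.12 and quantile normalization by -0.16. The calls over all genes, 1082 higher and 598 lower, were then 868 and 734 after median-ratio scaling and 804 and 804 after quantile normalization. The log2 fold change ranged over all alternatives from 0.76 to 1.01 for *Cps1*, from -0.79 to -0.50 for *Otc*, from 2.00 to 2.21 for *Ass1*, from 0.85 to 1.15 for *Asl*, from 0.38 to 0.58 for *Arg1* and from 1.35 to 1.70 for *Nags*. The highest limma adjusted p of any of them in any alternative was 0.00284, for *Otc*.

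**Figure D4:**
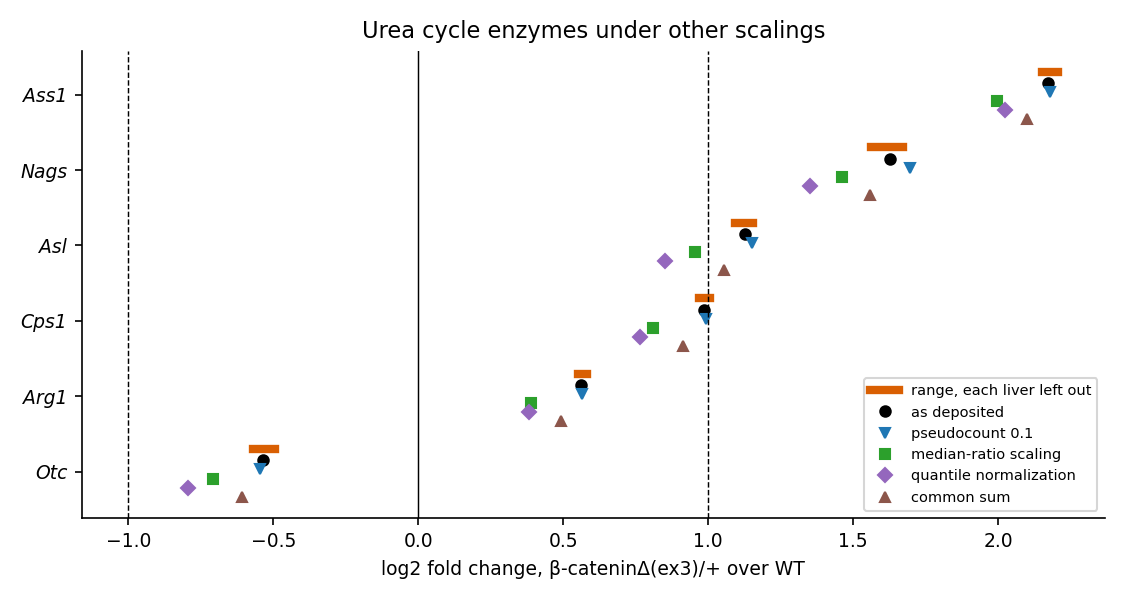
Log2 fold change of β-cateninΔ(ex3)/+ over WT livers for the 6 tested enzymes as deposited, with a pseudocount of 0.1, after 3 other scalings, and as the range with each liver left out; dashed lines mark 2-fold. *Asl* crosses the upper line under 2 of the scalings, the range of *Cps1* with each liver left out reaches it, and *Ass1*, *Nags*, *Arg1* and *Otc* keep their side of the lines.

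Promoter sequence was at hand for *Otc*, *Ass1* and *Nags*, the enzyme that fell and those that rose most. The stretches below, from RefSeq promoters of build GRCm38.p6 (plus strand, from 250 bases before the annotated start to the earliest transcript start), are shown to set the promoter of the enzyme that fell beside those of the enzymes that rose. They lie at chrX:10252055-10252229, chr2:31470020-31470206 and chr11:102145263-102145512, and capitals mark motif matches.
Otc: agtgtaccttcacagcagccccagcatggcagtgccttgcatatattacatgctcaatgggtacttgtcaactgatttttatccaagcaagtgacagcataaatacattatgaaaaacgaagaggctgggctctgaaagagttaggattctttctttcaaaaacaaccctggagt
Ass1: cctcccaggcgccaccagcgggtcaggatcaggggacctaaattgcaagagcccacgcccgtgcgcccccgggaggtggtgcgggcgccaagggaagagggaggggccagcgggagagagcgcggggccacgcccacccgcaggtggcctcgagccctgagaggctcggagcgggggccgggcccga
Nags: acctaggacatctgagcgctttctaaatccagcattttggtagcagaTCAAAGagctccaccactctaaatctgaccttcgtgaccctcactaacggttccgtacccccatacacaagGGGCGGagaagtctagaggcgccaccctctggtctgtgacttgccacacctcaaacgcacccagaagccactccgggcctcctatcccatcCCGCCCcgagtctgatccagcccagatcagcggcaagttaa
The *Ass1* stretch was 75.4% G or C with 18 CG pairs, that of *Nags* 55.6% with 11 and that of *Otc* 41.7% with 1. In windows of 300 bases around the start, 7 motifs were searched on both strands. *Nags* held the TCF/LEF letters TCAAAG 203 bases before the start, as did 16% of 32851 RefSeq promoter windows, and 2 GC boxes (GGGCGG or its complement, in 35.66% of windows). *Ass1* held 1 GC box, which lies past the end of the stretch shown. *Nags* held a CRE core (TGACG, in 20.81%) after the start, also outside the stretch shown. *Otc* held none of these, nor the letters of C/EBP (TTGCNNAA, 10.8%), HNF4 (CAAAGTCC, 1.42%, overlapping TCF/LEF by shared letters), HNF1 (GTTAAT, 7.1%) or the core promoter box TATAAA (13.62%), which the windows of *Ass1* and *Nags* also lacked. A match of letters is a description of the sequence and not a binding site.

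The genes that supply the cycle moved in both directions. Of 18 genes for carriers and substrate supply, 14 were tested. Of these, 1, *Slc25a15*, was higher by at least 2-fold, against 8.17% of all genes tested. At any fold 7 of the 14 rose and 3 fell, against 37.4% and 19.6% of all genes tested. Their median log2 fold change was 0.15, near the 0.14 of all genes. *Slc25a15*, which brings ornithine into mitochondria in exchange for citrulline, had 21.4, 21.2 and 20.8 FPKM in WT livers 1 to 3 and 45.3, 43.5 and 44.7 FPKM in β-cateninΔ(ex3)/+ livers 1 to 3, a log2 fold change of 1.04 (SE 0.036, limma adjusted p = 3.79e-06) that was under 2-fold after each of 3 other scalings. *Slc25a13*, the citrin carrier that exports aspartate for ASS1, fell from a mean of 40.6 to 24.02 FPKM (log2 fold change -0.73, limma adjusted p = 2.23e-05), and by at least 2-fold after quantile normalization (-1.01). *Glud1*, which releases ammonia from glutamate in mitochondria, fell from 335 to 196 FPKM (log2 fold change -0.77), and *Got2*, which makes mitochondrial aspartate, from 127 to 93.3 FPKM (-0.45). *Car5a*, which supplies bicarbonate to CPS1, rose from 24.2 to 40.7 FPKM (0.73) and *Mdh1*, of the cytosolic branch that takes up the fumarate carbon, from 79.6 to 141 FPKM (0.82). *Gls2*, the liver glutaminase that feeds ammonia to CPS1, was at 39.7 ± 4.73 FPKM in WT and 38.3 ± 1.302 FPKM in β-cateninΔ(ex3)/+ livers (SD, n = 3), and its groups overlapped.

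Past the cycle, *Oat* and *Prodh* break down ornithine and proline. On the log2(FPKM + 1) scale they had the largest fold changes of the 48 tested genes in the 4 lists around the cycle. This scale understates the changes of low genes. By the ratio of means *Prodh* (106.5) came before the glutamate transporter gene *Slc1a2* (72.2), and *Oat* (38.8) came after both. *Oat*, ornithine aminotransferase, had 15.0, 16.5 and 15.6 FPKM in WT livers 1 to 3 and 615, 610 and 601 FPKM in β-cateninΔ(ex3)/+ livers 1 to 3 (log2 fold change 5.19, limma adjusted p = 1.28e-08). *Oat* over *Arg1* was 0.110 ± 0.00647 in WT and 2.89 ± 0.0555 in β-cateninΔ(ex3)/+ livers, so *Oat* passed from well below to well above the enzyme that produces its substrate. *Prodh*, proline dehydrogenase, had a mean of 0.380 FPKM in WT and 40.5 FPKM in β-cateninΔ(ex3)/+ livers (log2 fold change 4.91). These 2 were higher by at least 2-fold and *Ddah2*, which breaks down methylated arginine, was lower (10.7 to 3.31 FPKM, log2 fold change -1.43) among 19 tested genes of arginine and ornithine use, of 25 listed. At any fold 7 of the 19 rose and 5 fell, against 37.4% and 19.6% of all genes tested. At 2-fold the shares over all genes were 8.17% higher and 4.52% lower. *Aldh4a1*, the next step of proline breakdown, had a mean of 86.7 FPKM in WT and 91.4 FPKM in β-cateninΔ(ex3)/+ livers, and its groups overlapped (limma adjusted p = 0.135). *Odc1*, the entry to polyamines, fell from 12.4 to 8.08 FPKM (log2 fold change -0.56), and *Agmat* fell from 109 to 81.4 FPKM (-0.42).

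Of the pericentral route that fixes ammonia as glutamine, all 3 listed genes were higher by at least 2-fold, against 8.17% of all genes tested. *Glul*, glutamine synthetase, had 103, 105 and 102 FPKM in WT livers 1 to 3 and 626, 633 and 619 FPKM in β-cateninΔ(ex3)/+ livers 1 to 3 (log2 fold change 2.59, limma adjusted p = 3.37e-08). *Glul* over *Cps1*, the 2 ammonia-fixing enzymes of the liver, was 1.16 ± 0.0207 in WT and 3.54 ± 0.0222 in β-cateninΔ(ex3)/+ livers. *Rhbg*, an ammonia channel, rose from 6.42 to 58.7 FPKM (3.02) and *Slc1a2*, a glutamate transporter, from 0.283 to 20.4 FPKM (4.06, log2 fold changes).

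Markers of the 2 zones were compared because the cycle is periportal. Of 12 periportal markers, all tested, 5 rose and 5 fell at any fold, with a median log2 fold change of -0.00062, and *Cyp2f2* rose (3.60) whereas *Pck1* fell (-1.45). Of 14 pericentral markers, 12 rose and 2 fell, with a median of 2.06. The 2 that fell were *Cyp2e1* (-0.23, from a mean of 1672 FPKM in WT to 1422 FPKM in β-cateninΔ(ex3)/+ livers) and *Lect2* (-0.12). Over all genes tested, 37.4% rose and 19.6% fell at any fold. The list of pericentral markers holds *Oat*, *Glul*, *Rhbg* and *Slc1a2* as well. Of this list, the study names *Glul*, *Oat* and *Axin2* as classical targets of β-catenin.

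Among 12 transcription factors and hormone receptors known to act on urea cycle genes or hepatocyte identity, all tested, 2 were higher by at least 2-fold. The share over all genes tested was 8.17%. *Hnf4a*, a nuclear receptor of hepatocytes, had 56.7, 58.6 and 57.6 FPKM in WT livers 1 to 3 and 125, 124 and 126 FPKM in β-cateninΔ(ex3)/+ livers 1 to 3 (log2 fold change 1.10, limma adjusted p = 1.24e-06), which was under 2-fold after median-ratio scaling and quantile normalization. *Cebpb* had 34.9, 16.5 and 31.8 FPKM in WT and 89.9, 81.9 and 86.7 FPKM in β-cateninΔ(ex3)/+ livers 1 to 3 (log2 fold change 1.67, limma adjusted p = 0.00276), with WT liver 2 below the others. At any fold 8 of the 12 rose and 1 fell, against 37.4% and 19.6% of all genes tested. Among the 8 were the glucagon receptor *Gcgr* (0.89), *Klf15* (0.94) and *Cebpa* (0.33), and the 1 was *Ppara* (-0.79). *Nr3c1*, the glucocorticoid receptor, was at 0.110 FPKM in WT liver 3 and between 6.35 and 6.91 FPKM in the other 5 livers, and it did not pass (limma adjusted p = 0.374). Over the 4 lists together, 8 of 48 tested genes were higher and 1 lower by at least 2-fold (8.17% and 4.52% of all genes tested). Their median log2 fold change was 0.32. At any fold 25 of the 48 rose and 9 fell (37.4% and 19.6% of all genes tested). After quantile normalization 17 rose and 13 fell. The shares of all genes just given belong to the values as deposited and do not apply to these 2 counts. Under quantile normalization 7203 of all genes tested passed at any fold, against 7551 as deposited, and their split by direction was not counted.

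**Figure D5:**
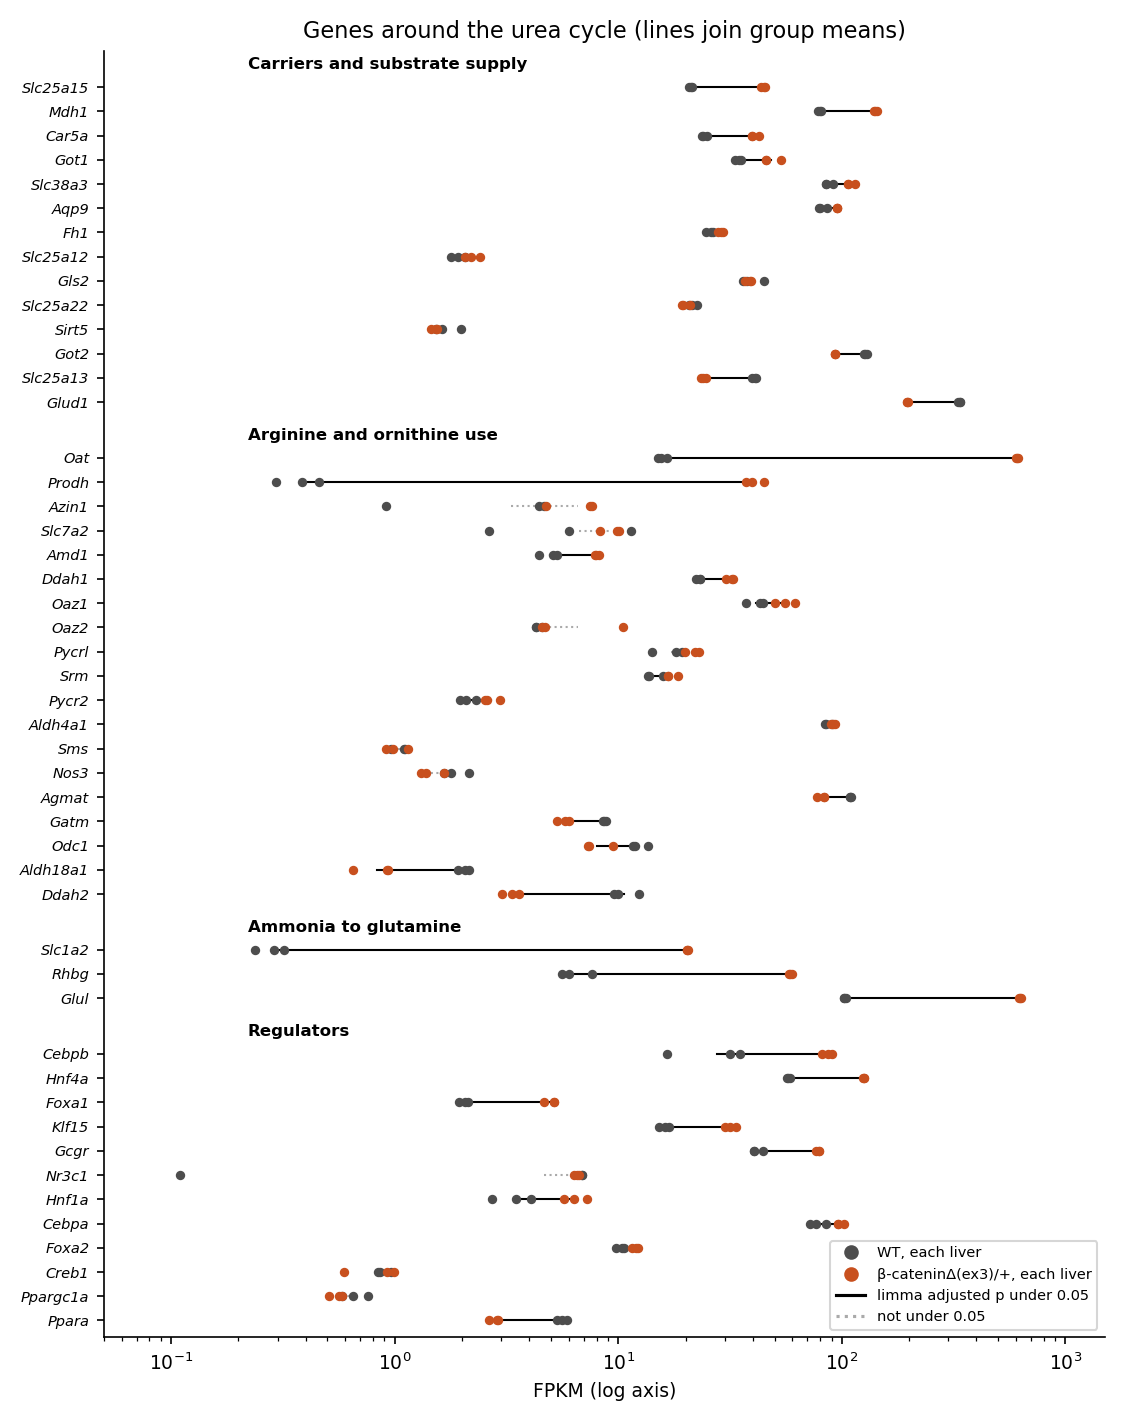
FPKM (log axis) of the 48 tested genes around the urea cycle in each WT (grey) and β-cateninΔ(ex3)/+ (orange) liver, grouped by role, with lines joining the group means (solid where the limma adjusted p is under 0.05). The longest lines are those of *Oat*, *Prodh* and *Slc1a2*, and most carriers and regulators have short ones.

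For each tested enzyme, the genes whose values over the 6 livers ran closest to its own were sought among 3126 genes with a mean of at least 10 FPKM, by the root mean square difference of centred log2(FPKM + 1) values. With 2 groups this mostly picks genes with a like group difference. *Cps1* had *Cers2*, *Hpx* and *Prnp* (differences of 0.019 to 0.023), *Otc* had the plasma protein genes *Apoh* and *Fetub* and the peptidase *Cpq* (0.031 to 0.035), and *Arg1* had *Sidt2*, *Hdlbp* and *Vcp* (0.012 to 0.018). *Asl* had *Gsta3*, *Ubb-ps* and *Gulo* (0.020 to 0.038). *Ass1* had *Ppp1r3b*, *Bhmt* and *Slpi* (0.044 to 0.048), and *Nags* had *Abhd6*, *C1qa* and *Rab32* (0.041 to 0.057). *Bhmt*, a methyltransferase of the methionine cycle, was like *Ass1* also in level, at 245 FPKM in WT and 1115 FPKM in β-cateninΔ(ex3)/+ livers.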

How the data were processed

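The authors deposited 1 table of FPKM for the 6 livers. The libraries were made with dUTP, which marks the strand, but whether counting used strand is not given in the sources used here, nor is the genome build. The submitters' processing notes name cutadapt 1.9, HISAT2 2.0.4, StringTie 1.3.4d, DESeq2 and edgeR; the authors tested differential expression with DESeq2 at a false discovery rate under 0.05 and at least 2-fold. FPKM are not counts, so no count test was run. Columns were matched to livers by name, and 0 were left unused.

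The members, the lists and the rule for genes named were chosen with earlier results of these data known. The rule takes the 7 members, the members of the lists, and for each tested member the 3 genes nearest in pattern. For 13243 genes with a mean of at least 0.5 FPKM, log2(FPKM + 1) was fitted with limma 3.58.1 (eBayes with trend) in R 4.3.3 over all 6 livers, with Benjamini-Hochberg adjustment over all of them. Fold changes on this scale understate those of low genes. Simulated data of 13081 genes for 3 against 3 livers were scored by an adjusted p under 0.05 and at least 2-fold together. By these, 92.2% of genes changed 4-fold, 55.9% of those changed 2.5-fold and 0.0155% of unchanged genes were called. Calls at any fold were not scored, so these shares do not apply to them. Python 3.11.15 with pandas 2.3.3, numpy 2.4.6 and matplotlib 3.10.9 did the rest. GENCODE M21, with the same start and end for 28911 of the 31950 genes, gave transcripts. RefSeq held promoters for 3 of the 7 members. The low values of 4900 single-exon genes come in steps, from which the depth was estimated. Replicates differed by 2.11 to 5.20 times the counting variance and were kept as separate samples. The alternatives were a pseudocount of 0.1, no filter, a mean of at least 1 FPKM, median-ratio scaling, quantile normalization, no trend, a replicate block and each liver left out. A common sum of FPKM and *Gm5424* added to *Ass1* were chosen after seeing the data.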

Additional observations from a re-analysis of the deposited data

How the results depend on the processing

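With a pseudocount of 0.1, 2705 genes passed both thresholds, 1706 higher and 999 lower; this construction raises fold changes of low genes. *Cps1* passed 2-fold at 1.01 without WT replicate 2 and ranged from 0.97 to 1.01 with each liver left out in turn, while *Asl* no longer passed 2-fold after median-ratio scaling (0.96) or quantile normalization (0.85). The number of enzymes higher by at least 2-fold was 2 rather than 3 under both of these scalings and 4 without WT replicate 2. In all, 268 comparisons of enzymes, ratios and counts stayed the same, 3 counts moved, 1 enzyme call became stronger and 2 weaker. The same means direction and side of the threshold for an enzyme, and direction alone for a ratio. For a count it means within 1.5 times its value, so 2 enzymes in place of 3 count as the same. Another filter, no trend or a block leaves the fold change of an enzyme as it was and could not reverse it. Among genes around the cycle, quantile normalization reversed *Slc25a12* (-0.0094), *Fh1* (-0.13), *Aqp9* (-0.040), *Srm* (-0.053), *Foxa2* (-0.079) and *Aldh4a1* (-0.20), and median-ratio scaling *Fh1* (-0.013) and *Aldh4a1* (-0.097). Leaving out 1 liver reversed *Gls2* (-0.10 to 0.051, highest without WT replicate 2), *Sms* (-0.075 to 0.0057, highest without β-cateninΔ(ex3)/+ replicate 2), *Nr3c1* (-0.070 to 1.35, lowest without WT replicate 3) and *Creb1* (-0.11 to 0.056, highest without β-cateninΔ(ex3)/+ replicate 3). *Slc25a13* (-1.01, quantile normalization), *Aldh18a1* (-1.21) and *Foxa1* (1.24, both at a pseudocount of 0.1) came past 2-fold, as did *Foxa1* without β-cateninΔ(ex3)/+ replicate 1 (1.02) and *Slc7a2* without WT replicate 3 (1.04). For these the cause was not tested. With the replicate number as a block, *Ass1* kept 2.17 (limma adjusted p = 8.83e-05), 3 enzymes were higher by at least 2-fold and 1673 genes were called, and no call on an enzyme changed. Each number stands for a different animal in each group, and the correlations of their deviations from the group means were 0.0268, 0.0213 and -0.0054, so they share only a number. *Arg1* over *Arg2* was not computed, since *Arg2* is listed at 0 in 2 livers. FPKM keep no counts, and with the depth only estimated, little can be read from *Arg2*.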
